A study of Mus musculus with 71 samples.

Results

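Gene expression in the hippocampus was compared with that in the frontal cortex of mice that had received a sham procedure, as the baseline difference between these brain regions without injury. The rule for the libraries used the labels and no measured value. Of the 71 libraries of the series, 17 had a treatment field of sham and came from these regions, 9 from the hippocampus and 8 from the frontal cortex. All were bulk RNA-seq libraries of mixed brain tissue from C57BL/6J mice, sequenced as single-end reads of 100 bp. Sham animals were shaved on the back under isoflurane without any injury, as a control for anaesthesia, analgesia and handling. They received buprenorphine, an opioid analgesic, at 0.1 mg/kg under the skin, as did the burn and excision animals of the series. Paracetamol at 1 mg/mL in the drinking water for 5 days is described for the time after the procedures. The series follows the brain after a non-severe burn, and its burn and excision libraries (10 for each region and treatment) are used here only to read the same regional difference again. The labels used here leave out age, sex and the time of tissue collection, and do not say whether an animal gave both regions. Nothing in the labels says that the libraries of a group are separate animals, so p-values measure the spread between these libraries.

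The hippocampus is a folded strip of cortex at the medial edge of the hemisphere, known for its part in forming memories of places and events. Granule cells of its dentate gyrus send mossy fibres to the pyramidal cells of CA3, which in turn drive those of CA1, and CA2 lies between them. The frontal cortex is a layered sheet whose upper layers mainly connect cortical areas and whose deep layers send axons to the striatum, thalamus and brainstem. In the mouse it lies behind the olfactory bulb and above the striatum, while choroid plexus, the tissue that secretes cerebrospinal fluid, lies in the ventricle beside the hippocampus.

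Batch 1 held 4 hippocampus and 5 frontal cortex libraries, and batch 2 held 5 hippocampus and 3 frontal cortex libraries. Total counts ran from 7.34 to 39.5 M reads in the hippocampus and from 47.4 to 80.4 M reads in the frontal cortex, so the regions did not overlap in depth. Some libraries stood apart within their region. Choroid plexus and ependyma markers summed to 145 to 7084 CPM (reads per 1 M reads counted) in the hippocampus, against 156 to 231 CPM in the frontal cortex, and were most abundant in hippocampus replicates 1, 8 and 9. Hippocampus replicate 1 also held the most transcripts of thalamus and septum, at 225 CPM for the summed markers. Haemoglobin transcripts reached 2605 CPM in hippocampus replicate 3 and at most 457 CPM in the frontal cortex. Markers of the olfactory bulb summed to 8.98 to 16.3 CPM in the hippocampus, against 41.5 to 516 CPM in the frontal cortex. Markers of striatal projection neurons summed to 157 to 265 CPM in the hippocampus, against 269 to 2323 CPM in the frontal cortex. Frontal cortex replicates 3 and 5 were low in the olfactory and high in the striatal markers. Xist, made from the inactive X chromosome of females, ran from 97.1 to 294 CPM in the hippocampus and from 48.6 to 344 CPM in the frontal cortex. Ddx3y, a gene of the Y chromosome, was at 0 CPM in every sham library of both regions.

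Differences were tested with edgeR's quasi-likelihood test, with batch as an additive term, over 19336 genes. A gene was called at a Benjamini-Hochberg adjusted p under 0.05, and every adjusted p of a single gene below is from this test. A log2 fold change is hippocampus over frontal cortex, with the SE of the fit, so a positive value means higher in the hippocampus. Of 15080 protein-coding genes, 2206 (14.6%) were called higher in the hippocampus and 3422 (22.7%) lower. These shares are the background against which each count of list members called stands. A test against a 2-fold difference called 267 (1.77%) higher and 341 (2.26%) lower, and in 471 of these 608 genes no library of one region overlapped with any of the other. Such a lack of overlap was seen in 3.89% of all protein-coding genes tested with the hippocampus higher and in 4.97% with it lower. A further 2615 protein-coding genes (17.3%) had a 95% interval within 1.2-fold of no difference. Processed pseudogenes, which are copies of messenger RNAs inserted into the genome, made up 71.4% of all genes called beyond 2-fold higher and are described apart from the protein-coding genes. In bulk tissue, fewer cells of a type and less RNA per cell cannot be told apart.

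Markers of dentate granule cells were mostly higher in the hippocampus. Of 12 markers tested, 9 were called higher and 2 lower, with a median log2 fold change of 1.94, against -0.04 over all protein-coding genes. Prox1 (chr1:190118035-190170714 on GRCm38), the homeobox factor that maintains granule cell identity, had a lowest, median and highest level of 28.3, 53.5 and 81.6 CPM in the hippocampus, against 3.95, 7.48 and 10.6 CPM in the frontal cortex. The regions did not overlap, and Prox1 was called (2.93 ± 0.21, adjusted p = 9.84e-10). C1ql2 (chr1:120340582-120343174), a secreted C1q-like protein of mossy fibre synapses, had 73.0, 130.2 and 139 CPM in the hippocampus, against 0.529, 0.941 and 1.93 CPM in the frontal cortex (lowest, median and highest, as in all such triplets below). Every hippocampus library lay far above every frontal cortex library (6.81 ± 0.23, adjusted p = 3.47e-14). Dsp, which encodes the desmosomal protein desmoplakin, had 13.6, 31.2 and 37.9 CPM in the hippocampus, against 0.163, 0.449 and 0.769 CPM in the frontal cortex. It was likewise separated without overlap (5.86 ± 0.29, adjusted p = 3.16e-12). The lactase gene Lct and the tryptophan dioxygenase gene Tdo2 were higher by 5.13 and 2.96 on the log2 scale. The 2 markers called lower were Sema5b, a semaphorin, and Pdzd2, a protein with PDZ domains, at -0.80 and -1.11. Dock10 was not called (0.18).

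**Figure D1:**
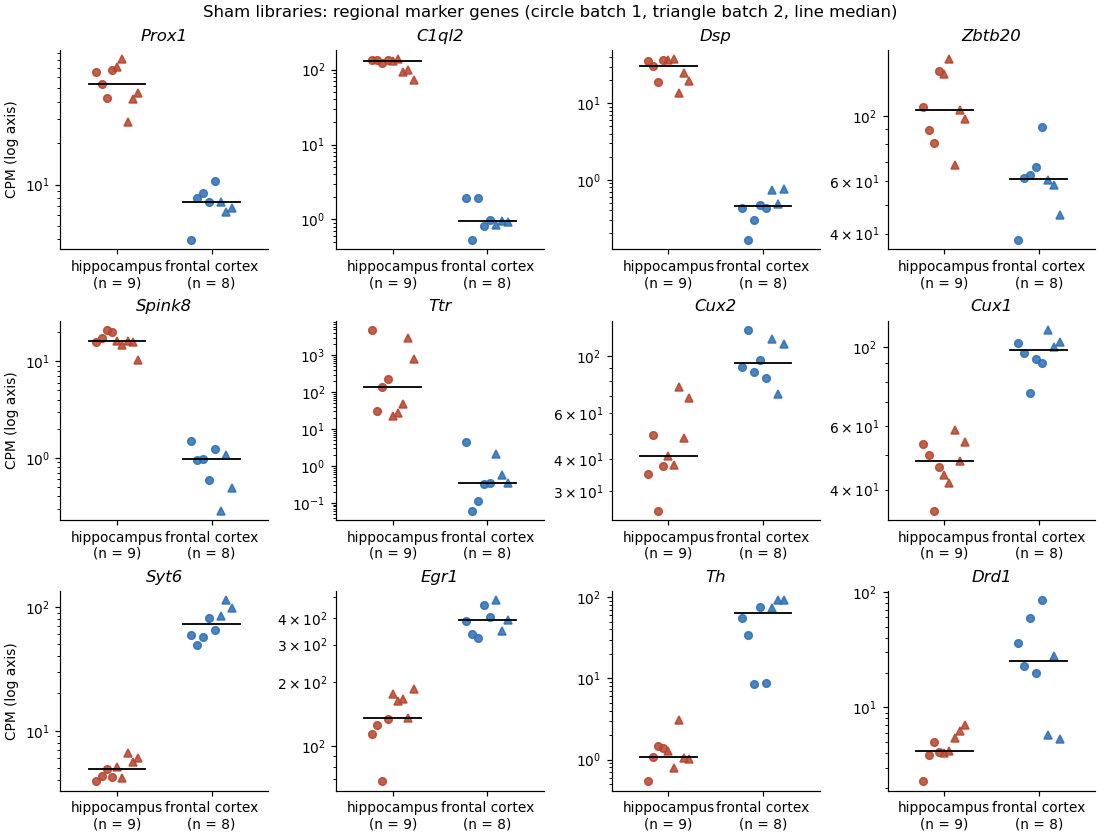
CPM (log axes) of 12 named genes in the 9 hippocampus libraries (left of each panel) and the 8 frontal cortex libraries (right), with circles for batch 1, triangles for batch 2 and lines at the medians. Prox1, C1ql2, Dsp, Spink8 and Ttr lie higher in every hippocampus library than in any frontal cortex library, Syt6, Egr1 and Th lie lower, and Drd1 spreads from 5.31 to 84.6 CPM within the frontal cortex.

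The sets for other hippocampal cell types were more divided. For CA1 pyramidal cells, 5 of 10 markers were called higher and 1 lower. Fibcd1, a membrane receptor for acetylated sugars, had 129, 178 and 229.9 CPM in the hippocampus, against 15.4, 21.998 and 25.9 CPM in the frontal cortex. It was the most abundant of the called CA1 markers that separated the regions without overlap (3.06 ± 0.12, adjusted p = 1.35e-13). The protease inhibitor gene Spink8 had 10.4, 16.1 and 21.3 CPM in the hippocampus, against 0.284, 0.969 and 1.50 CPM in the frontal cortex, a difference of 4.34 without overlap. Gpr161, a receptor of primary cilia, and Lefty1, a secreted inhibitor of Nodal signalling, were higher by 2.51 and 3.50. The receptor kinase gene Tyro3 was lower at -0.997. Wfs1, an endoplasmic reticulum membrane protein that marks CA1 but is also made in cortex, had 105, 155 and 235 CPM in the hippocampus, against 96.96, 149.5 and 242 CPM in the frontal cortex, and was not called (0.13 ± 0.18, adjusted p = 0.592). Its libraries overlapped fully, and its sign turned with the batch, at -0.29 (adjusted p = 0.312) in batch 1 alone and 0.63 (adjusted p = 0.0121) in batch 2 alone.

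For CA2, 5 of 9 markers tested were called higher and 1 lower. Ntf3, the gene of neurotrophin 3, had 2.77, 4.78 and 5.30 CPM in the hippocampus, against 0.452, 0.650 and 1.14 CPM in the frontal cortex (2.64 ± 0.20, adjusted p = 1.52e-09). Rgs14, a regulator of G protein signalling known to restrain plasticity in CA2, was higher by 0.78, and Cacng5, an auxiliary subunit of AMPA receptors, was lower at -2.77. Sostdc1, a secreted antagonist of BMP and Wnt signals that was listed for CA2, was higher by 3.90, but its highest levels of 24.9, 12.6 and 5.54 CPM fell in hippocampus replicates 1, 8 and 9, the libraries with the most choroid plexus RNA. For CA3, 5 of 10 markers were higher and 1 lower. Grik4, a kainate receptor subunit of mossy fibre synapses, had 45.5, 62.8 and 70.3 CPM in the hippocampus, against 15.6, 22.6 and 28.9 CPM in the frontal cortex (1.53 ± 0.11, adjusted p = 5.08e-10). Iyd, an enzyme that recovers iodide, was higher by 4.49 at low levels in both regions, and Coch, the gene of the inner ear matrix protein cochlin, was lower at -1.38. Of 6 markers of hilar mossy cells, 1 was higher and 3 lower, the lower ones being Calb2, Drd2 and Nmb (-1.75, -2.91 and -1.92), which olfactory or striatal neurons also make. Calb2 and Nmb were not called in batch 1 alone and Drd2 not in batch 2 alone. Of 7 Cajal-Retzius cell markers, 2 were higher and 4 lower.

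Transcription factors of the hippocampal field were mostly higher, whereas factors of cortical projection neurons were split. Of 12 hippocampal or dorsomedial factors, 9 were called higher and 1 lower. Lhx9, a LIM homeobox factor, had 7.54, 9.78 and 14.6 CPM in the hippocampus, against 0.210, 0.387 and 0.585 CPM in the frontal cortex (4.71 ± 0.21, adjusted p = 8.77e-13). Zbtb20, a zinc finger repressor needed for hippocampal identity, had 68.1, 105 and 155 CPM in the hippocampus, against 38.0, 61.0 and 91.5 CPM in the frontal cortex. It was called although the ranges overlapped (0.86 ± 0.18, adjusted p = 6.42e-04). The neurogenic factor Neurod1 was higher by 1.08, and the glucocorticoid-inducible factor Klf9 was lower at -0.39 but not called in batch 2 alone. Of 15 projection neuron factors, 5 were higher and 6 lower. The bHLH factors Neurod2, Neurod6 and Bhlhe22 were higher by 1.36, 1.26 and 1.48, each without overlap. Tbr1 and Mef2c, which act in the development of cortical excitatory neurons, were lower at -0.94 and -1.41.

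Markers of upper cortical layers were lower in the hippocampus. Of 11 tested, 8 were called lower, and Mdga1, Unc5d and Calb1 were not called (0.28, -0.32 and 0.09). The median log2 fold change was -0.95. Cux2, a homeobox factor of upper-layer neurons, had 25.1, 41.0 and 75.9 CPM in the hippocampus, against 71.1, 93.6 and 127 CPM in the frontal cortex (-1.15 ± 0.17, adjusted p = 2.13e-05). Its relative Cux1 and the POU factor gene Pou3f2 separated the regions without overlap at -1.03 and -1.48. Lamp5, a membrane protein of upper layers and of some interneurons, was lower at -1.55. Deep-layer markers went both ways, with 5 of 17 higher and 5 lower. Syt6 (chr3:103575231-103645569), a synaptotagmin of deep-layer neurons, had 3.89, 4.87 and 6.65 CPM in the hippocampus, against 49.5, 73.4 and 113 CPM in the frontal cortex (-4.01 ± 0.12, adjusted p = 8.46e-15). This was the largest difference of the deep-layer list. Foxp2, a forkhead factor of layer 6, and the neurexophilin gene Nxph4 were lower at -2.85 and -2.12. Crym, a thyroid hormone binding protein, and Hs3st4, an enzyme of heparan sulfate synthesis, were higher by 1.47 and 1.05.

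Choroid plexus and ependyma markers had large differences and a wide spread between libraries. Of 14 markers, 11 were called higher in the hippocampus, with a median log2 fold change of 2.83, and Aqp1, Dynlrb2 and Enpp2 were not called. Ttr, the gene of transthyretin, which carries thyroid hormone into the cerebrospinal fluid, had 22.5, 139 and 4971 CPM in the hippocampus, against 0.0610, 0.347 and 4.38 CPM in the frontal cortex (10.02 ± 1.52, adjusted p = 2.17e-05). The regions did not overlap, but the hippocampus libraries differed widely among themselves. Replicates 1, 8 and 9 held 4971, 2893 and 817 CPM of Ttr and the other 6 at most 231 CPM. Folr1, a folate receptor of the choroid plexus, followed the same libraries at 36.8, 24.2 and 7.21 CPM, with at most 1.89 CPM in the other 6 and 0.944 CPM in the frontal cortex. The anti-ageing gene Kl (klotho), the bicarbonate transporter gene Slc4a5 and the homeobox factor gene Otx2 were higher by 4.23, 5.90 and 2.99. Without replicates 1, 8 and 9, 6 of the markers were called higher and 2 lower, namely Aqp1 (-2.96, adjusted p = 0.00373) and Enpp2 (-0.41, adjusted p = 0.0221), and the median log2 fold change was 1.26. Outside the list, the potassium channel subunit gene Kcne2 was higher by 6.86, again with its highest level of 29.6 CPM in replicate 1.

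Among genes outside the cell type lists, the largest differences included some with no well-known hippocampal role. The keratin gene Krt2 averaged 8.37 ± 2.35 CPM in the hippocampus and 0.229 ± 0.127 CPM in the frontal cortex (SD, n = 9 and 8). Atp1a4, a sodium pump subunit best known from sperm, and Popdc3, a membrane protein that binds cyclic AMP, were higher by 4.53 and 3.93. Gstm3, a glutathione transferase, was higher by 4.20, but 37.7% of its 31-base words also occur in other genes, so reads of its relatives may be counted with it. Homer3, a scaffold protein of excitatory synapses, had 24.8, 38.4 and 47.9 CPM in the hippocampus, against 4.24, 5.09 and 6.87 CPM in the frontal cortex (2.90 ± 0.13, adjusted p = 9.67e-13). Its relatives Homer1 and Homer2 were lower at -1.19 and -0.74. Of 21 postsynaptic genes, 4 were higher and 10 lower, with the scaffold gene Dlg1 lower at -0.82.

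Abundant neuronal genes differed by smaller folds. Hpca, the gene of the calcium sensor hippocalcin, had 1052, 1551 and 1678 CPM in the hippocampus, against 357, 476 and 797 CPM in the frontal cortex (1.54 ± 0.16, adjusted p = 1.27e-07). Cpne6, a calcium-dependent membrane-binding protein of dendritic spines, had 464, 654 and 757 CPM in the hippocampus, against 145, 259.6 and 345 CPM in the frontal cortex, a difference of 1.31. Both separated the regions without overlap. Ncdn (neurochondrin), Ddn (dendrin) and Ppp3ca (a calcineurin subunit) were higher by 0.86, 0.62 and 0.69. Lower abundant genes included Camk2n1, an inhibitor of CaM kinase II, and Cx3cl1, the neuronal ligand of a microglial receptor, at -0.99 and -0.63.

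Markers of the olfactory bulb were among the genes with the largest deficits in the hippocampus. All 8 olfactory markers were called lower, with a median log2 fold change of -4.80. Th (chr7:142892752-142931128), the rate-limiting enzyme of dopamine synthesis and a marker of olfactory dopamine neurons, had 0.537, 1.07 and 3.10 CPM in the hippocampus, against 8.52, 64.4 and 91.6 CPM in the frontal cortex (-5.47 ± 0.47, adjusted p = 9.92e-09). The mitral cell cadherin gene Cdhr1 had 4.96, 7.52 and 8.61 CPM in the hippocampus, against 19.9, 136 and 209 CPM in the frontal cortex. Both separated the regions, and both were lowest within the frontal cortex in replicates 3 and 5. Tbx21 and Eomes, T-box factors of mitral and tufted cells, were lower at -4.83 and -5.65. Trh, the precursor of thyrotropin-releasing hormone, Scgn, the calcium sensor secretagogin, and Shisa3, a regulator of Wnt and FGF receptors, were lower at -4.77, -4.08 and -6.01. Outside the list, Sp8, a factor of olfactory interneurons, was lower at -4.96, as were Lgr5, a receptor for R-spondins, and Abi3bp, a matrix protein, at -4.57 and -4.71. Ms4a15, a membrane-spanning protein of the MS4A family, was at 0 in the median hippocampus library and reached 0.358 CPM there, against 1.44 to 38.5 CPM in the frontal cortex. Without frontal cortex replicates 3 and 5, the median of the olfactory list was -5.09, with 8 members called lower. Olfactory markers were present in all 8 frontal cortex libraries at widely different levels, and their part in other differences was not tested.

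Striatal projection neuron markers were also lower. All 12 tested were called lower, with a median of -2.50, and Isl1 was below the count filter. Penk, the gene of the opioid precursor proenkephalin, had 26.7, 34.6 and 60.6 CPM in the hippocampus, against 103, 228 and 609.5 CPM in the frontal cortex (-2.79 ± 0.33, adjusted p = 9.13e-07). Drd1, the dopamine D1 receptor of direct-pathway neurons, had 2.28, 4.18 and 7.08 CPM in the hippocampus, against 5.31, 25.2 and 84.6 CPM in the frontal cortex. Frontal cortex replicates 6 and 8 fell within the hippocampus range of Drd1, and replicates 3 and 5 held its highest levels. The adenosine receptor gene Adora2a and the substance P precursor gene Tac1 were lower at -3.48 and -2.03. In batch 1 alone 12 were called lower, and in batch 2 alone 4, namely Penk (-2.06, adjusted p = 4.23e-04), Adora2a (-2.19, adjusted p = 0.0345), Tac1 (-1.14, adjusted p = 0.0207) and Syndig1l (-1.10, adjusted p = 0.00948). Among those not called in batch 2 were Drd1 (-1.28, adjusted p = 0.0654), Drd2 (-1.70, adjusted p = 0.148) and Rgs9 (-1.04, adjusted p = 0.102). The median of the list was -3.44 in batch 1 alone and -1.25 in batch 2 alone. Of 10 markers of thalamus and septum, 3 were lower, namely Zic1, Zic4 and Tac2 (-2.30, -1.32 and -1.01), beside 22.7% of all protein-coding genes. All 12 listed markers of thalamus and septum summed to 225 CPM in hippocampus replicate 1 and 46.5 to 85.7 CPM in the other 8, against 102 to 127 CPM in the frontal cortex. Without hippocampus replicate 1, 5 were lower, the others being Synpo2 (-0.78, adjusted p = 3.15e-04) and Tnnt1 (-1.04, adjusted p = 8.77e-04). Zic4 was not called in batch 1 alone and Tac2 not in batch 2 alone.

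Genes of GABAergic neurons differed by class, with 6 of 18 higher and 9 lower. The GABA-synthesising enzyme gene Gad1 had 234, 249 and 285 CPM in the hippocampus, against 382, 558 and 789 CPM in the frontal cortex (-1.25 ± 0.11, adjusted p = 1.19e-08). Gad2 and the vesicular GABA transporter gene Slc32a1 were lower at -1.38 and -0.98. The neuropeptide genes Crh and Vip were lower at -1.73 and -0.85. The receptor kinase gene Kit was higher by 1.07, and Sst and Pvalb, which mark the somatostatin and parvalbumin classes, were higher by 0.63 and 0.73. The count of higher calls was 1 in batch 1 alone (Kit), 7 in batch 2 alone and 3 without hippocampus replicates 1 and 3, against 9, 8 and 9 lower calls. Striatal projection neurons and olfactory interneurons also make GABA, and their part in the Gad1 value was not tested. Gad1 was at -0.98 in batch 1 and -1.58 in batch 2, the median of the striatal markers at -3.44 in batch 1 and -1.25 in batch 2, and that of the olfactory markers at -4.19 in batch 1 and -5.27 in batch 2. Genes of progenitors and immature neurons were mostly lower, with 10 of 16 lower and 2 higher. Dcx, a microtubule protein of migrating neurons, had 5.10, 11.1 and 13.3 CPM in the hippocampus, against 17.7, 51.8 and 77.0 CPM in the frontal cortex (-2.21 ± 0.25, adjusted p = 4.54e-07). Sox4, a factor of differentiating neurons, and the immature neuron gene Igfbpl1 were lower at -1.61 and -2.39. Hopx, which marks stem cells of the dentate gyrus and also astrocytes, was higher by 0.96. Immature neurons that reach the olfactory bulb also carry Dcx, and the part of the olfactory markers in the Dcx value was not tested.

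**Figure D2:**
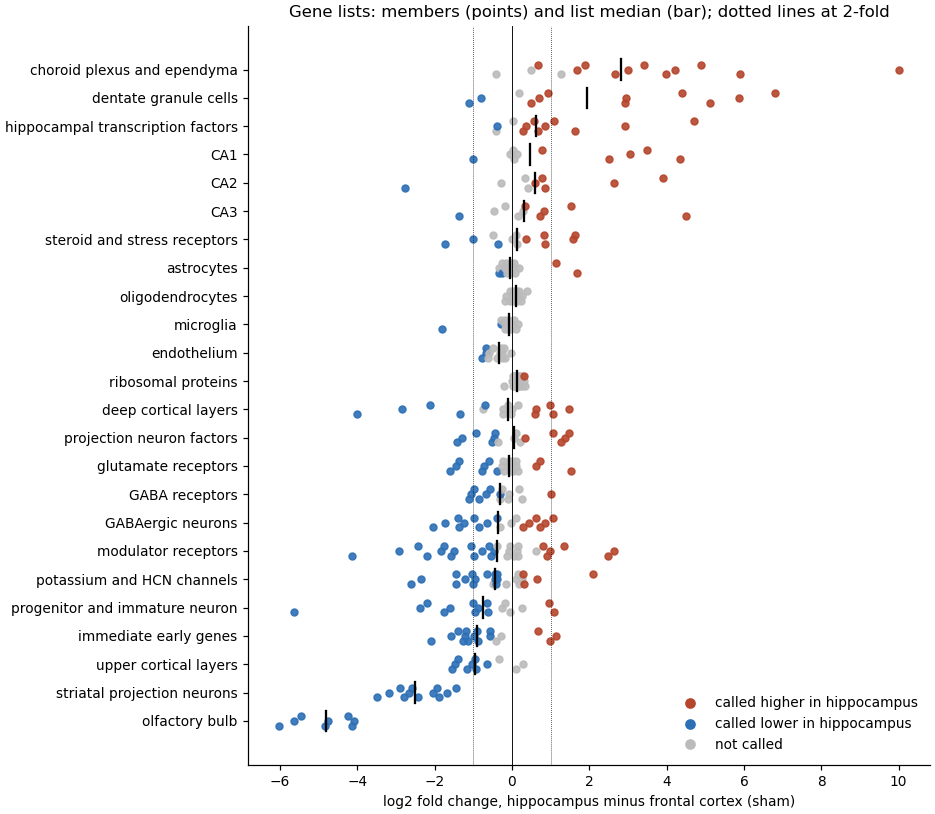
Log2 fold change, hippocampus over frontal cortex, of each member (point) of 24 gene lists in the sham libraries, coloured by whether it was called higher, called lower or not called, with list medians as black bars and dotted lines at a 2-fold difference. Choroid plexus and dentate granule genes lie to the right, with medians of 2.83 and 1.94, and striatal and olfactory genes to the left, with medians of -2.50 and -4.80.

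Receptor genes differed in the balance of subunits within families. Each subunit's share of its family was computed in every library from counts per kilobase of annotated exon, and 28 shares were compared by a two-sided exact permutation test within batches with Benjamini-Hochberg adjustment. The length was that of all annotated exons of a gene, used in these tissues or not. The size of a share depends on that length, and other lengths were not tried. Gria1, an AMPA receptor subunit known for its role in hippocampal plasticity, made up 72.6 ± 4.01% in the hippocampus and 56.4 ± 6.20% in the frontal cortex (SD, n = 9 and 8, exact permutation, adjusted p = 3.61e-04). Its unadjusted p was the smallest this design can give. Gria3 and Gria4 made up 8.73% and 5.10% in the hippocampus and 16.2% and 10.7% in the frontal cortex. Among kainate receptor subunits, Grik4 held 12.0% in the hippocampus and 4.35% in the frontal cortex, whereas Grik3 held 7.00% in the hippocampus and 18.1% in the frontal cortex. Among NMDA receptor subunits, Grin2a held 13.3% in the hippocampus and 8.40% in the frontal cortex. The obligatory subunit Grin1, at 52.7% in the hippocampus and 51.5% in the frontal cortex, did not pass (exact permutation, adjusted p = 0.468). In level, 3 of 22 glutamate receptor genes were called higher and 7 lower, beside 14.6% and 22.7% of all protein-coding genes, with the metabotropic receptor genes Grm4 and Grm8 lower at -1.61 and -1.38.

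The GABA-A receptor alpha subunits had an opposite balance in the regions. Gabra5, a subunit of extrasynaptic receptors that carry tonic inhibition in hippocampal pyramidal cells, made up 41.8 ± 5.68% in the hippocampus and 19.3 ± 4.32% in the frontal cortex (exact permutation, adjusted p = 3.61e-04). Gabra3 made up 16.6 ± 3.72% in the hippocampus and 32.4 ± 1.49% in the frontal cortex. In level, Gabra5 was the 1 gene of 14 GABA receptor genes called higher (1.00), and 7 were lower. Gabrd, the delta subunit of extrasynaptic receptors, had 28.9, 33.0 and 56.4 CPM in the hippocampus, against 64.7, 71.4 and 114 CPM in the frontal cortex (-1.06 ± 0.15, adjusted p = 6.82e-06). Its ranges did not overlap.

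**Figure D3:**
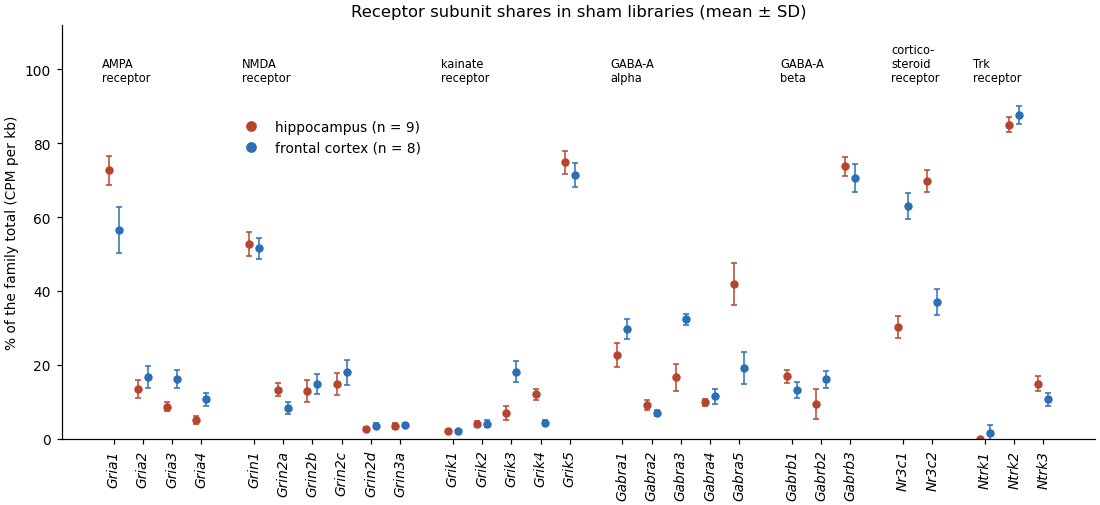
Share of each subunit in its receptor family, in percent of the family's summed CPM per kilobase of exon, as mean and SD over the hippocampus libraries (left point of each pair, n = 9) and the frontal cortex libraries (right point, n = 8). Gabra5 (41.8% and 19.3%) and Nr3c2 (69.8% and 37.1%) hold larger shares in the hippocampus than in the frontal cortex, and Gabra3 and Grik3 smaller ones.

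Of 29 receptor genes for monoamines and acetylcholine, 6 were called higher and 14 lower, beside 14.6% and 22.7% of all protein-coding genes. In batch 2 alone 9 were lower. Drd5, a dopamine receptor of the D1 class, had 5.72, 8.36 and 11.3 CPM in the hippocampus, against 0.954, 1.37 and 2.15 CPM in the frontal cortex (2.65 ± 0.17, adjusted p = 1.76e-10). As 48.1% of its 31-base words occur in other genes, reads of copies may be counted with it. The serotonin receptor genes Htr1a and Htr4 were higher by 1.35 and 2.49. Htr2a, the serotonin receptor through which classical psychedelics act, had 5.94, 9.12 and 14.9 CPM in the hippocampus, against 19.5, 35.3 and 40.8 CPM in the frontal cortex (-1.84 ± 0.17, adjusted p = 2.88e-08). Htr1d, the muscarinic receptor gene Chrm2 and the adrenergic receptor gene Adra1a were lower at -4.13, -2.19 and -1.56, each without overlap. Of 11 opioid and endocannabinoid genes, 3 were higher and 6 lower. Faah, which breaks down the endocannabinoid anandamide, was higher by 0.96. The opioid receptor genes Oprd1, Oprk1 and Oprm1 were lower at -1.46, -2.29 and -1.76. Scaled by exon length to 1 M, they averaged only 3.75, 0.262 and 0.0837 in the hippocampus and 10.65, 1.50 and 0.329 in the frontal cortex. Oprm1 was highest in frontal cortex replicate 5, at 1.98 CPM (next 0.984), a library high in striatal markers. The part of striatal RNA in these values was not tested. All animals had received buprenorphine, a ligand of opioid receptors.

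The corticosteroid receptors had opposite balances. Nr3c2 (chr8:76899442-77245012), the high-affinity mineralocorticoid receptor, had 65.2, 105 and 164 CPM in the hippocampus, against 28.9, 32.02 and 39.2 CPM in the frontal cortex (1.64 ± 0.14, adjusted p = 1.63e-08). Nr3c1, the glucocorticoid receptor, was lower (-0.37 ± 0.14, adjusted p = 0.0426). That call was lost in batch 1 alone (-0.52, adjusted p = 0.0547), in batch 2 alone (-0.20, adjusted p = 0.440) and on leaving out any one of 11 of the 17 libraries. Per length, Nr3c2 made up 69.8 ± 3.00% in the hippocampus and 37.1 ± 3.57% in the frontal cortex of the pair (SD, n = 9 and 8, exact permutation, adjusted p = 3.61e-04). Hsd11b1, an enzyme that regenerates active glucocorticoid in cells, and Fkbp5, a co-chaperone that dampens the glucocorticoid receptor, were higher by 1.57 and 0.83. Crhr1, a receptor for corticotropin-releasing hormone, was lower at -1.02. In the whole list, 5 of 12 genes tested were higher and 3 lower, with 2 lower in batch 1 and 2 in batch 2 alone. Of 7 neurotrophin genes, 2 were higher and 2 lower. Bdnf, an activity-dependent neurotrophin, had 29.4, 38.0 and 48.8 CPM in the hippocampus, against 26.7, 32.1 and 39.1 CPM in the frontal cortex, and was not called (0.21 ± 0.11, adjusted p = 0.124). Its receptor gene Ntrk2 was lower at -0.53.

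Immediate early genes, which neurons transcribe rapidly when active, were called lower in the hippocampus in 12 of 17 cases and higher in 3. Many of these genes are known to be induced through the cyclic AMP response element, so the windows before the start of 3 of them are shown, 2 lower in the hippocampus and 1 higher. Sequences are from RefSeq on GRCm38.p6 and hold the 250 bases before the annotated start, 5′ to 3′ on the strand of the gene. Capitals mark TGACGT, the core of that element, or its reverse complement ACGTCA.
Fos, lower, chr12:85473640-85473889, plus strand: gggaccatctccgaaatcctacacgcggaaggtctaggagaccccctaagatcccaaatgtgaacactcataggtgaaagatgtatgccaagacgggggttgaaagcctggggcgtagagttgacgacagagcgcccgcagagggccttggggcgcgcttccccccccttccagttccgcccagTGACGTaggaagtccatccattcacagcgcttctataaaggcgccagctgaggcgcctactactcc
Npas4, lower, chr19:4989972-4990221, minus strand: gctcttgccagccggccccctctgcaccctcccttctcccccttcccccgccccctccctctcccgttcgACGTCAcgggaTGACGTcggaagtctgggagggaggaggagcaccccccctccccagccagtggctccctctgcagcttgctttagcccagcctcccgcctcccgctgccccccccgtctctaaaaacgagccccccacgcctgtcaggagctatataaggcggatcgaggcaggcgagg
Nr4a3, higher, chr4:48045055-48045304, plus strand: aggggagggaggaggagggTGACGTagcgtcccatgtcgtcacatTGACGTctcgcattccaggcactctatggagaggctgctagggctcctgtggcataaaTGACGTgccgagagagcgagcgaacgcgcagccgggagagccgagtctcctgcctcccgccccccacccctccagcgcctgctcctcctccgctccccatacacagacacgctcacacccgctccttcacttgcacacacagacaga
Searched on both strands, TGACGT occurred in 6.47% of 32851 such windows of all genes. A gene may have several windows, and 7.29% of 27025 genes held it in at least 1. Windows of 13 of the 17 immediate early genes were read here, and 7 of these genes held it in at least 1. It was found in 5 of 8 genes called lower and in 1 of 3 called higher. A match is a run of letters in a window, not a measured binding site.

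Egr1, a zinc finger factor with high resting levels in cortex, had 68.4, 135 and 186 CPM in the hippocampus, against 323, 390.2 and 484 CPM in the frontal cortex (-1.57 ± 0.13, adjusted p = 1.11e-08). Its relatives Egr2 and Egr3 were lower at -2.10 and -1.21, also without overlap. Fos, a partner in the AP-1 factor, had 6.25, 19.0 and 30.2 CPM in the hippocampus, against 15.2, 41.2 and 75.2 CPM in the frontal cortex (-1.39 ± 0.23, adjusted p = 5.87e-05). Npas4, Fosb and Arc, activity-induced genes of excitatory neurons, were lower at -1.26, -1.18 and -0.98. Jun, another AP-1 subunit, had 73.3, 106 and 124 CPM in the hippocampus, against 36.2, 46.7 and 56.5 CPM in the frontal cortex (1.14 ± 0.11, adjusted p = 7.43e-08). It went against most of the list, as did the orphan nuclear receptor genes Nr4a2 and Nr4a3, higher by 0.99 and 0.67.

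Counts for potassium channel, axon guidance and clock genes stand beside the shares of 14.6% higher and 22.7% lower among all protein-coding genes. Of 24 voltage-gated potassium and HCN channel genes, 4 were higher and 14 lower. Kcng2, a modifier subunit, had 17.04, 25.3 and 40.5 CPM in the hippocampus, against 4.77, 6.38 and 8.44 CPM in the frontal cortex (2.11 ± 0.10, adjusted p = 2.80e-12). The channel genes Kcnh5 and Kcnf1 were lower at -2.61 and -1.44. Of 18 Eph receptor and ephrin genes, 7 were higher and 6 lower, with the receptor gene Ephb2 higher by 0.85 and the ligand gene Efna5 lower at -1.65. Of 17 circadian clock genes, 1 was higher and 9 lower, with the repressor genes Cry1 and Per1 and the activator gene Npas2 lower at -0.87, -0.53 and -0.89. The hour of tissue collection is not given in the labels used here.

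Glial, vascular and energy genes were called in few cases, below the background shares of 14.6% higher and 22.7% lower in most lists. edgeR called 0 of 15 myelin and oligodendrocyte genes, with 0 at an unadjusted p under 0.05, and DESeq2's Wald test called 0. Mbp, the gene of myelin basic protein, had 728, 1326 and 1625 CPM in the hippocampus, against 837, 1318 and 2018 CPM in the frontal cortex (-0.05 ± 0.17, adjusted p = 0.852). Astrocyte genes were higher in 2 of 16 cases and lower in 2. Gfap, the intermediate filament of astrocytes, had 221, 337 and 397 CPM in the hippocampus, against 111, 159.9 and 196 CPM in the frontal cortex (1.15 ± 0.13, adjusted p = 4.76e-07). The angiotensinogen gene Agt was higher by 1.68, and the glutamate transporter gene Slc1a3 was lower at -0.35. In batch 1 alone Slc1a3 was not called (-0.36, adjusted p = 0.0630), and astrocyte genes called lower numbered 0 in batch 1 and 1 in batch 2. Lower calls numbered 2 of 14 for microglia, 3 of 14 for endothelium, 1 of 9 for mural cells and 3 of 10 for oligodendrocyte precursors (1 in batch 1 and 3 in batch 2 alone). For fibroblasts, 2 of 11 genes were higher, among them the proteoglycan gene Dcn at 2.09, and 3 lower. Of 28 cytosolic ribosomal protein genes 1 was higher, of 24 nuclear genes of oxidative phosphorylation 4 were higher, and of 16 endoplasmic reticulum stress and chaperone genes 2 were higher and 1 lower. Single libraries moved these counts. Without frontal cortex replicate 1, 12 ribosomal protein and 9 oxidative phosphorylation genes were called higher and 3 mural genes lower. Without hippocampus replicate 3, 2 myelin and oligodendrocyte genes were called higher and 0 endothelial genes lower, and in batch 2 alone 3 myelin and oligodendrocyte genes were higher. Endothelial genes called lower numbered 0 without hippocampus replicate 2 or 3 or frontal cortex replicate 6, and 1 without hippocampus replicate 1 or 8 or frontal cortex replicate 2 or 4. No endoplasmic reticulum chaperone was called higher without any one of hippocampus replicates 1, 2, 3, 7 and 8 or frontal cortex replicates 2, 4, 5, 6 and 7, or in either batch alone. Oxidative phosphorylation genes called higher numbered 2 without hippocampus replicate 3 or 8 or frontal cortex replicate 2, 4 or 6, and 1 in batch 1 and 1 in batch 2 alone. Mural genes called lower numbered 3 without hippocampus replicate 4, and astrocyte genes called lower 4 without frontal cortex replicate 3. Mitochondrially encoded genes, none of them called with all libraries, were called lower in 6 cases in batch 2 alone, in 0 in batch 1 alone and in 4 without frontal cortex replicate 1. The mitochondrial share of counts was 5.23 ± 0.701% in the hippocampus and 5.41 ± 2.29% in the frontal cortex (SD, n = 9 and 8, exact permutation p = 0.562).

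Processed pseudogenes took a larger share of counts in the hippocampus. They made up 3.60 ± 0.320% of counts in the hippocampus (3.24 to 4.19%) and 1.94 ± 0.281% in the frontal cortex (1.63 to 2.53%), without overlap (SD, n = 9 and 8, exact permutation p = 1.42e-04, the smallest this design can give). The difference was 1.79 percentage points in batch 1 and 1.62 in batch 2. Of 1832 tested, 952 (52%) were called beyond 2-fold higher and 55 (3%) beyond 2-fold lower. After all libraries were thinned to the smallest total, 607 were called beyond 2-fold higher. The share called beyond 2-fold higher was 16.7% of 42 with under 10% of their 31-base words in another gene, 73.4% of 706 with 10 to 60% and 39.4% of 1084 with over 60%. For protein-coding genes it was 1.44%, 2.38% and 6.7% in the same bins. The part of shared sequence in these calls was not tested. Each copy was assigned to the parent gene with which it shares most 31-base words in the GENCODE M21 transcripts. Of 1874 copies with a tested parent, transcribed processed pseudogenes included, 960 were beyond 2-fold higher. Their 488 parents had a median log2 fold change of 0.08, with 96 called higher and 42 lower. How reads that match a copy and its parent equally were counted is not given in the sources used here. A difference in sequencing or counting that went with region cannot be told apart from a difference in expression of the copies.

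A pair of copies is shown with its parents. Rpl31-ps10 (chr4:137395299-137395676), a copy of the ribosomal protein gene Rpl31, averaged 19.8 ± 4.07 CPM in the hippocampus and 0.298 ± 0.107 CPM in the frontal cortex (SD, n = 9 and 8). Rpl31 itself averaged 226 ± 42.6 CPM in the hippocampus and 231 ± 52.2 CPM in the frontal cortex and was not called (0.02 ± 0.12, adjusted p = 0.906). Gm12922 (chr4:123709219-123710027), a copy of the ribosomal protein gene Rps2, went the other way and averaged 0.124 ± 0.0921 CPM in the hippocampus and 41.0 ± 8.18 CPM in the frontal cortex. Rps2 averaged 284 ± 60.7 CPM in the hippocampus and 341 ± 94.8 CPM in the frontal cortex and was not called (-0.20 ± 0.12, adjusted p = 0.214). The copies thus differed between the regions while the genes they derive from did not pass the test. Over the bases that could be aligned with gaps, Rpl31-ps10 matched 98.1% of 375 coding bases of Rpl31, and Gm12922 matched 97.6% of 806 coding bases of Rps2 and lacked 73 others. Stretches of 90 coding bases of each gene are set against the matching stretch of its copy, from GENCODE M21 on GRCm38, 5′ to 3′, with the differing bases in capitals.
Rpl31, chr1, coding bases 41 to 130: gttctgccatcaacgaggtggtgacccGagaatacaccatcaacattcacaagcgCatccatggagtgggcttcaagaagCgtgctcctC
Rpl31-ps10, chr4: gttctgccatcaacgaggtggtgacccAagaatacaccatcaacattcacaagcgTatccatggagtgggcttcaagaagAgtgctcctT
Rps2, chr17, coding bases 721 to 810: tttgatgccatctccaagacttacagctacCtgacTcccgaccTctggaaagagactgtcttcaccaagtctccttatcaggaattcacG
Gm12922, chr4: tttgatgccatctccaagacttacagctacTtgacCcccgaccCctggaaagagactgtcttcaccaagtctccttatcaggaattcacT
Counted from the first base of each stretch, and with the base of the parent gene first, Rpl31-ps10 differs by G28A, C56T, C81A and C90T, and Gm12922 by C31T, T36C, T44C and G90T.

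**Figure D4:**
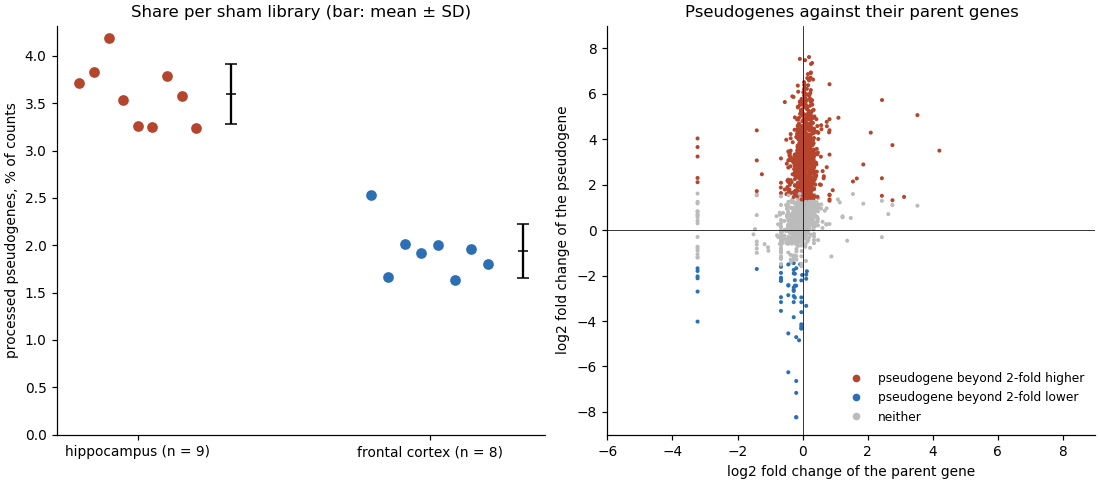
Left, share of counts in processed pseudogenes (percent) in each sham library, with mean and SD as bars beside the points, where the hippocampus libraries lie between 3.24 and 4.19% and the frontal cortex libraries between 1.63 and 2.53%. Right, log2 fold change (hippocampus over frontal cortex) of each pseudogene against that of its parent gene, where the copies spread widely along the vertical axis and most parents lie near 0.

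The regional difference was read again in the burn and the excision libraries, which took no part in the choice of the sham genes. Of the 267 protein-coding genes beyond 2-fold higher in the sham hippocampus, 259 were tested in the burn libraries and 259 were called higher there, against 18.1% of all protein-coding genes tested. Of the 341 lower genes, 332 were tested and 319 called lower, against 27.1%. In the excision libraries, 254 of 255 were called higher and 321 of 330 lower, against 12.8% and 22.7%. Beyond 2-fold in the same direction were 222 of the 259 higher and 206 of the 332 lower genes in burn, and 224 of 255 and 170 of 330 in excision libraries. The median log2 fold change of the higher genes was 2.17 in burn and 2.12 in excision libraries, beside 2.29 in sham. That of the lower genes was -1.70 in burn and -1.65 in excision libraries, beside -2.03 in sham; both sets were chosen for their size in sham libraries. Prox1 was higher by 2.35 in the burn and 3.08 in the excision libraries, beside 2.93 in sham. Th was at -4.59 in the burn and -3.24 in the excision libraries, beside -5.47 in sham. Some lists with few calls in sham had other counts here. Ribosomal protein genes called higher numbered 24 of 28 in burn and 2 in excision libraries (1 in sham). Those of oxidative phosphorylation numbered 11 of 24 and 3 (4 in sham), and astrocyte genes 8 of 16 and 5 (2 in sham). Lower calls in these 3 lists numbered 0 in burn. Endothelial genes called lower numbered 6 of 14 in burn and 0 in excision libraries (3 in sham). Of the 267 genes, 65 had 10 to 60% and 31 over 60% of their 31-base words in another gene, against 27 and 5 of the 341. Of 952 processed pseudogenes beyond 2-fold higher in sham, 925 were called higher in burn and 917 in excision libraries. A difference in counting that went with region would return in these libraries too, and its part was not tested. In the frontal cortex, 2 burn libraries have titles that name sham, and 1 excision library has a title that names burn. The burn set may therefore hold sham libraries. The hippocampus libraries of the same batch and running numbers have titles and treatment fields that both match the treatment fields of these frontal cortex libraries. Without the frontal cortex libraries whose title and treatment field disagree, 9466 genes of any class were called between the regions in burn and 7781 in excision libraries. With them, the counts were 9491 and 7824. Across protein-coding genes, which are not independent replicates and whose 3 sets of libraries came from the same batches, the correlation of regional log2 fold changes was 0.91 between burn and sham (Pearson, 15022 genes) and 0.91 between excision and sham (15042 genes). edgeR called 0 of 21610 genes for a region by burn interaction (1847 at an unadjusted p under 0.05) and 0 for a region by excision interaction (1524 at an unadjusted p under 0.05). DESeq2's Wald test called 0 and 0.

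**Figure D5:**
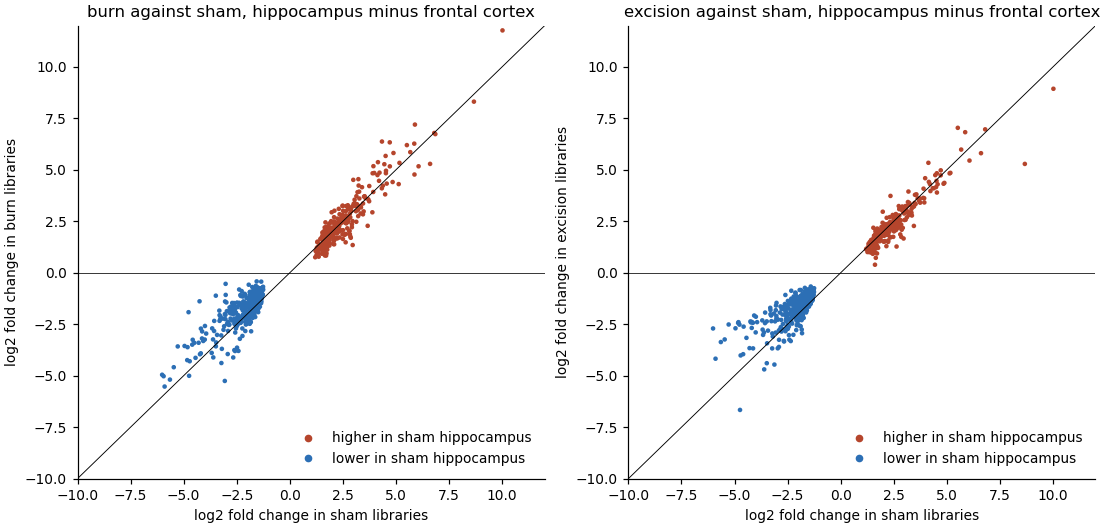
Log2 fold change, hippocampus over frontal cortex, in burn libraries (left panel) and excision libraries (right panel) against that in sham libraries, for protein-coding genes called beyond 2-fold in sham, with the diagonal at equal values. The genes were chosen on the horizontal axis, and all of those tested in burn or excision libraries lie on the same side of 0 as in sham.

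Within the sham libraries, the correlation of the regional difference between the batches was 0.81 across 15080 protein-coding genes. Each batch alone, with 9 and 8 libraries, gave fewer calls for many lists. Besides the lists for which batch counts are given above, those whose count moved by over 1.5 times, or to or away from 0, follow, with the count from all libraries in parentheses. In batch 1 alone, higher calls numbered 0 for hilar mossy cells (1), 5 for hippocampal factors (9), 7 for choroid plexus and ependyma (11), 1 for fibroblasts (2), 1 for opioid and endocannabinoid genes (3), 2 for potassium and HCN channels (4) and 0 for clock genes (1). Lower calls in batch 1 numbered 1 for hilar mossy cells (3), 2 for Cajal-Retzius cells (4), 1 for endothelium (3), 0 for mural cells (1), 1 for fibroblasts (3) and 0 for endoplasmic reticulum chaperones (1). In batch 2 alone, higher calls numbered 1 for Cajal-Retzius cells (2), 1 for mural cells (0), 3 for GABA receptors (1) and 1 for neurotrophins (2). Lower calls in batch 2 numbered 2 for CA3 (1), 3 for projection neuron factors (6), 1 for microglia (2), 0 for endothelium (3) and 4 for GABA receptors (7). They also numbered 6 for progenitors and immature neurons (10), 3 for Eph receptors and ephrins (6), 6 for postsynaptic genes (10), 5 for clock genes (9) and 0 for endoplasmic reticulum chaperones (1). Dentate granule markers called higher numbered 9 and 8, upper-layer markers called lower 9 and 7, and immediate early genes called lower 10 and 11 in batches 1 and 2. For a region by batch interaction, edgeR called 0 of 19336 genes (2108 at an unadjusted p under 0.05), whereas DESeq2's Wald test called 149.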

How the data were processed

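The authors deposited whole-number counts per gene for 71 libraries and 55416 Ensembl gene identifiers. Per the submitters' processing notes, FastQC 0.11.3, fastp, STAR, DESeq2 1.24.0 and GRCm38 were used. Which program counted the reads, with which annotation release and strand setting, is not stated there, so reads of overlapping, antisense and near-identical genes may be split or merged. Symbols and positions came from GENCODE M21, which matched 52083 identifiers and left 3333 without a match.

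Libraries were grouped by their treatment and tissue fields. Of the 57 hippocampus and frontal cortex libraries, 3 have a title at odds with their treatment field, and none of these is among the 17 sham libraries. By title, 19 libraries are sham, the added ones being frontal cortex libraries of batch 2 with burn in the treatment field. With titles as treatment, 8323 genes were called and 1791 beyond 2-fold, against 7919 and 1778. Of 64 pairs of libraries within a region, 0 were identical, and the lowest chi-square per degree of freedom was 11.7.

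Counts were fitted with edgeR 4.0.16 under R 4.3.3 (TMM normalisation, filterByExpr on region, batch and region as terms, quasi-likelihood F test, glmTreat at a log2 fold change of 1 for the 2-fold calls), with Benjamini-Hochberg adjustment over all genes tested. Genes were alike where the 95% interval lay within 1.2-fold. CPM used TMM-scaled library sizes. Single measures per library were compared by a two-sided exact permutation test over 7056 arrangements within batches. The fit was tested on simulated counts for 19082 genes, 18884 of them unchanged and the others with known changes. It called 46% of genes changed by a log2 fold change of 0.5, 85.4% at 1 and 100% at 2, and 0.0477% of unchanged genes. Far fewer genes were changed there than the 7919 called in the data. These shares therefore do not carry over to the comparison. Words of 31 bases shared between GENCODE M21 transcripts marked genes whose reads may be confused. Identity between copy and parent came from a gapped local alignment.

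Named genes were, in each direction, the 15 of largest fold change beyond 2-fold reaching an average of 5 CPM or more in a region, with 1 sign in both batches and no overlap within a batch, the 5 of largest CPM difference, up to 6 members per gene list, ranked by p, with members not called given as values, and 11 always read. A few genes named by this rule are not reported here. The same ranking over protein-coding genes was added after the data were seen. Further list members (Sema5b, Pdzd2, Homer2, Sst, Pvalb, Htr4, Nr3c1, Fos, Npas4, Arc, Nr4a2, Nr4a3, Aqp1, Enpp2, Syndig1l, Synpo2, Tnnt1), Rpl31, Rps2 and the printed sequences were chosen after their values were seen. The rule for the libraries uses labels alone, but this comparison, its members, the lists and the tests were chosen with earlier results of these data known. Alternatives were DESeq2 1.42.0 and its size factors, no count filter, no batch term, each batch alone, thinned counts, titles as treatment, all 57 libraries in 1 fit, a replicate block and leaving out libraries.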

Additional observations from a re-analysis of the deposited data

Results flagged for a closer look

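Of 334 groups of values (a gene's level or a share of counts over the libraries of a region), 34 held a library whose gap to the next passed Dixon's 95% critical value, 28 in the hippocampus and 6 in the frontal cortex. That value is set to be passed in about 1 of 20 groups of independent, normally distributed values. Levels in CPM of genes from the same libraries need not be so, and the number expected here was not computed. The values fell in a few libraries and are given by library.

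Hippocampus replicate 1 was highest for 5 genes that are abundant in choroid plexus, with Enpp2 1680.0 CPM (next 816), Kl 151 CPM (next 62.8), Aqp1 31.4 CPM (next 15.5), Kcne2 29.6 CPM (next 14.8) and Sostdc1 24.9 CPM (next 12.6). It was also highest for the summed markers of thalamus and septum, at 225 CPM against 85.7 CPM in the next library, and for 2 of these markers, with Synpo2 19.9 CPM (next 4.48) and Tnnt1 6.57 CPM (next 1.80). The same library was lowest for the immature neuron gene, Dcx 5.10 CPM (next 9.59). Hippocampus replicate 3 stood apart in haemoglobin transcripts, at 2605 CPM against 399.8 CPM in the next library, and was highest for Crym 314 CPM (next 204), Calb2 74.9 CPM (next 48.3), Hopx 62.8 CPM (next 48.3), Krt2 13.8 CPM (next 9.65) and Nmb 4.53 CPM (next 3.17). Hippocampus replicate 7 was highest for Camk2n1 1521 CPM (next 1144), Lamp5 148 CPM (next 79.8), Th 3.10 CPM (next 1.48) and Ms4a15 0.358 CPM (next 0.0528) and lowest for Gpr161 33.3 CPM (next 48.4). The first 4 of these genes were lower in the hippocampus than in the frontal cortex, and Gpr161 was higher. Hippocampus replicate 9 was highest for Homer1 202 CPM (next 135), Dlg1 114 CPM (next 85.6), Gria4 78.0 CPM (next 55.8), Grik3 77.6 CPM (next 55.4), Tbr1 72.0 CPM (next 52.3) and Unc5d 36 CPM (next 25.0) and lowest for Hpca 1052 CPM (next 1402). In hippocampus replicate 4, the T-box factor gene of mitral cells was highest, with Eomes 1.80 CPM (next 0.656).

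Frontal cortex replicate 1 was highest for Rps2 561 CPM (next 346) and Lefty1 1.50 CPM (next 0.824) and for the share of processed pseudogenes, at 2.53% against 2.01% in the next library, and it was lowest for Gria3 116 CPM (next 207). Iyd 0.325 CPM (next 0.133) was highest in frontal cortex replicate 2, and Oprm1 1.98 CPM (next 0.984) in replicate 5. All of these libraries were kept in the tests, and the results without each library in turn are among the alternatives.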

How the results depend on the processing

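The regional comparison called 7919 genes of any class, 1778 of them beyond 2-fold. Leaving out any 1 library gave 7169 to 9063 and 1691 to 1870 genes, 272 to 327 list members called (main value 294) and 2228 to 2957 genes within 1.2-fold (main value 2662). Batch 1 alone gave 5213 genes called and 551 within 1.2-fold, and batch 2 alone 1097 within 1.2-fold, both from fewer libraries. Beyond 2-fold, 2715 genes were called without a count filter and 1089 after thinning to the smallest library, which leaves fewer reads. A fit of protein-coding genes alone called 508 beyond 2-fold, where the main fit called 608 protein-coding genes. With genes under 10% shared 31-base words alone, 4831 were called, 438 beyond 2-fold, from fewer genes tested. Region by batch calls, 0 by edgeR, were 149 with DESeq2's Wald test and 0 to 15 without 1 library (3, 15 and 1 without frontal cortex replicates 1, 4 and 6). The region by burn interaction called 1 gene without a count filter. The mitochondrial difference (-0.18 percentage points) was 0.141 in batch 1, -1.23 in batch 2 (exact permutation p = 0.0179) and -0.67 to 0.279 without 1 library, positive without frontal cortex replicates 2, 6 or 8. The share of counts in the provisional TEC class of the annotation differed by 0.00320 percentage points and by -0.00741 in batch 2. The cause of these changes was not tested.

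Of 158 named genes under 5174 alternative values, 32 lost a call (in 13 genes, of which Calb2, Nmb, Zic4, Slc1a3, Sst, Pvalb and Grin2a lost it in batch 1 alone, Drd2, Klf9, Drd1, Rgs9 and Tac2 in batch 2 alone and Nr3c1 in 11 settings without 1 library and 8 others), 36 gained one and 30 turned sign, the last all in 10 genes that were not called. Nmb also lost its call with the replicate block. Over all 245 genes read, the named ones included, 254 of 7998 values lost a call, in 45 genes. Grin1 was at -0.0142 without a count filter, -0.0616 in batch 1, -0.0138 with all 57 libraries fitted together and -0.024 to 0.0559 without 1 library (sign turned without frontal cortex replicate 2, hippocampus replicate 7 and frontal cortex replicate 6). Rpl31 was at -0.012 without a count filter, -0.0319 without the batch term, -0.094 in batch 1, -0.0237 with all 57 libraries fitted together and -0.0416 to 0.0896 without 1 library (sign turned without hippocampus replicate 3, frontal cortex replicate 2, frontal cortex replicate 4, hippocampus replicate 7 and frontal cortex replicate 6). Wfs1 was at -0.29 in batch 1. Aqp1 was at 0.49 in batch 1 and 0.12 in the 14 libraries numbered in both regions. Calb1 was at -0.0607 in batch 1. Synpo2 was at 0.079 in batch 1. Mbp was at 0.22 in batch 2, 0.0284 with treatments from titles, 0.0007132 with protein-coding genes alone, 0.0183 with genes under 10% shared words, 0.0428 without hippocampus replicates 1 and 3 and -0.12 to 0.0677 without 1 library (sign turned without hippocampus replicate 3 and frontal cortex replicate 1). Dock10 was at -0.23 in batch 2. Unc5d was at 0.0403 in batch 2. Enpp2 was at -0.41 without hippocampus replicates 1, 8 and 9.

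Within a batch, each running number found in both regions had the same treatment field in both. This would hold for regions of the same animal and also for groups numbered in the same order. The main test took the libraries as unpaired. Expression levels did not clearly pair the libraries by running number. Over 7 pairs the correlation of deviations ran from -0.271 to 0.411, with 3 pairs over 0.1 and 2 libraries closest to their own number. With so few libraries in a batch, these values cannot decide whether an animal gave both regions. With the running number as a replicate block, 6794 genes were called and 1607 beyond 2-fold. In the same 14 libraries without the block, these counts were 7422 and 1657. Depth did not overlap between the regions, so depth and region cannot be told apart, least of all for genes near the count filter. The share of counts in processed pseudogenes did not overlap either. A difference in sequencing or counting that went with region cannot be told apart from region, and the batch term does not remove it.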
